A study of Caenorhabditis elegans with 4 samples.

Results

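The thaumatin-like genes of C. elegans, thn-1 to thn-6, were taken by name, with every probe of each gene on the arrays. They are 6 of the 20478 genes with a probe, and 7 probes read them, 2 for thn-1 and 1 for each of the others. To relate gene expression to physical ability at one chronological age, wild-type N2 worms kept at the same temperature were divided on day 7 to 8 of adulthood by their maximum velocity (MV). Low MV worms moved at a peak speed below 0.22 mm/sec and high MV worms at or above it, and the groups differed in nothing else that the labels name. Whole body RNA was hybridized to 4 single-colour Agilent arrays, 2 of low MV and 2 of high MV worms. The labels do not say whether the 2 arrays of a group came from separate cultures, so each p measures only the spread between these samples, which may be technical.

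Thaumatin-like proteins take their name from the sweet protein thaumatin of a West African plant. In plants they belong to the pathogenesis-related proteins, several of which act against fungi, and nematodes and insects are among the few animals that carry the family. In C. elegans thn-1 and thn-2 are counted among the antimicrobial effectors, the secreted proteins of innate immunity, and thn-2 belongs to the immune genes placed under the insulin receptor DAF-2 and the FOXO factor DAF-16. The RefSeq table lists thn-3 as a pseudogene, and the products of thn-4, thn-5 and thn-6 are known by family only.

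Signals are given as log2 of the background-subtracted intensity after quantile normalization, a scale on which a difference of 1 is a 2-fold change. A probe was called present where both arrays of at least 1 group exceeded a cutoff, set for each array where the curves of a 2-component Gaussian mixture cross and lying between 6.65 and 6.67. By this rule 12882 genes were tested with limma, each by its brightest present probe, and DEGs had an adjusted p (Benjamini-Hochberg) under 0.05 and differed by over 0.58 in log2 (1.5-fold). Both low MV arrays lay on 1 slide with 1 scan and both high MV arrays on another, so slide, scan and physical ability cannot be told apart. With so few arrays the smallest two-sided p of an exact permutation test is 0.333, so every p rests on the spread that limma shares across genes. Over all genes 17% were down-regulated in low MV worms and 21.8% up-regulated, so a call by itself was common. With arrays scaled to spike-in probes, 73.2% of the calls over all genes were down-regulations, against 43.8% with quantile normalization.

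Of the 6 thn genes, thn-1, thn-2 and thn-3 had a present probe, and all 3 were down-regulated in low MV worms by 3.51-fold to 4.76-fold. The other 3 genes had signals below the present cutoffs on every array. Without the filter on dim probes, thn-5 was also lower in low MV worms, and thn-4 and thn-6 did not pass the test. The share called down-regulated over all genes in that fit was 14.3%.

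The gene thn-1 (F28D1.3) had signals of 12.62 and 12.38 in low MV worms, against 14.58 and 14.06 in high MV worms. The groups did not overlap, and the gap of 1.43 between them exceeded the 0.52 between the high MV arrays. It fell by 1.81 on the log2 scale (SE 0.20, 95% interval -2.32 to -1.30, limma adjusted p = 0.00184). Before normalization the background-subtracted intensities were 5808 and 4519 in low MV worms, against 26214 and 21292 in high MV worms. The second, dimmer probe of thn-1 read 11.78 and 11.58 in low MV worms, against 13.56 and 13.07 in high MV worms. In a fit of all 22268 present probes, of which 17.2% were lower in low MV worms, this probe fell by 1.64 (SE 0.19, adjusted p = 0.00199). The fold changes of the 2 probes of thn-1 differed by less than 1 SE.

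The gene thn-2 (F28D1.5) had signals of 14.30 and 14.22 in low MV worms, against 16.41 and 15.98 in high MV worms. The low MV arrays lay within 0.08 of each other, and the groups were 1.68 apart at their closest. It fell by 1.94 (SE 0.16, 95% interval -2.36 to -1.52, adjusted p = 0.00109), a 3.84-fold difference. In intensity this was 18213 and 15632 in low MV worms, against 89670 and 71367 in high MV worms. No spot on any array was saturated, so these bright values are measurements and not limits.

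The pseudogene thn-3 (F28D1.4) fell most of the 3 on the scale used here, and least with 75th percentile scaling (-2.01), spike-in scaling (-2.38) and normexp (-0.98). Its signals were 6.81 and 6.76 in low MV worms, against 9.21 and 8.87 in high MV worms. Both low MV arrays lay 0.15 and 0.11 above the present cutoff, and the gap to the nearer high MV array was 2.06. It fell by 2.25 (SE 0.14, 95% interval -2.60 to -1.90, adjusted p = 0.000735). The intensities were 129 and 106 in low MV worms, against 533 and 502 in high MV worms. Under normexp background correction (offset 50) its fall still passed (adjusted p = 0.00201).

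**Figure D1:**
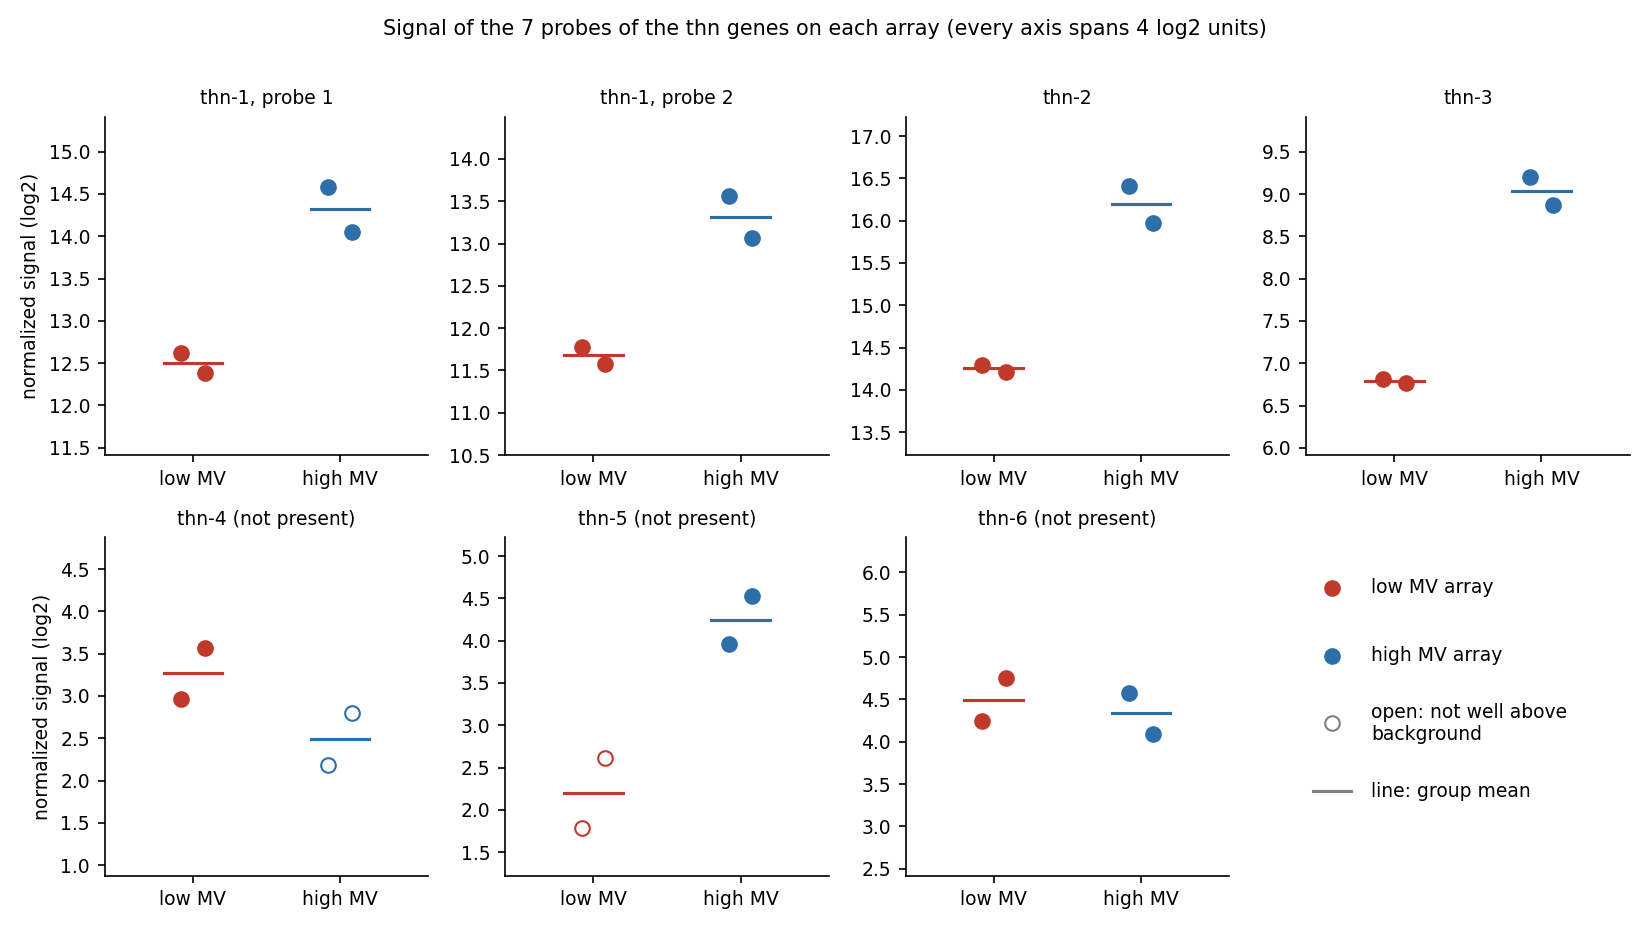
Normalized log2 signal of the 7 probes of the thn genes on each array, low MV arrays in red and high MV arrays in blue, with lines at group means and open points for spots not well above background. Both probes of thn-1 and those of thn-2 and thn-3 had groups 1.28 to 2.06 apart at their closest arrays, while the groups of thn-6 overlapped.

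Both low MV arrays lay below both high MV arrays for 41.2% of all genes tested, so the separation of thn-1, thn-2 and thn-3 was not rare in itself. Ranked by size of fall among the 12882 genes, thn-3 was at 191, thn-2 at 301 and thn-1 at 337. All 3 genes had the same order of arrays, with high MV replicate 1 highest, then high MV replicate 2, low MV replicate 1 and low MV replicate 2. That order was seen in 765 of 12882 genes (5.94%).

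Leaving out any 1 of the 4 arrays kept thn-1, thn-2 and thn-3 past the threshold, with log2 fold changes of -2.07 to -1.55 for thn-1, -2.16 to -1.72 for thn-2 and -2.42 to -2.08 for thn-3. With spike-in scaling the median of all genes moved to -0.35, and relative to it the differences were -2.10 for thn-1, -2.14 for thn-2 and -2.03 for thn-3. The methods' t-test on the same values, after Benjamini-Hochberg adjustment, kept thn-3 alone (adjusted p = 0.0477), with thn-1 at 0.0693 and thn-2 at 0.056.

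The gene thn-5 (Y59E9AR.4) was read near background. Its signals were 1.79 and 2.61 in low MV worms, where neither spot was well above background, against 3.96 and 4.53 in high MV worms, where both were. Intensities were 3.90 and 6.22 in low MV worms, against 12.7 and 24.2 in high MV worms, on spots whose local background was 20 to 22. Set against the lowest signal that counted as well above background, thn-5 was 3.29-fold lower in low MV worms. For this value the low MV mean took, on each array, the higher of that lowest signal and the spot's own. It takes the dim high MV signals as exact, so it is not a lower limit of the fold change. The measured difference in the fit of 20460 genes without the filter was -2.05 (SE 0.37, 95% interval -3.09 to -1.01, adjusted p = 0.0221). The call was lost without low MV replicate 1 (adjusted p = 0.0885), low MV replicate 2 (0.0695) or high MV replicate 2 (0.0751), although without either low MV array no gene of the 20460 passed. In the deposited log2 table, from which no background was subtracted, the fall of thn-5 was 0.47, and with normexp correction it was 0.05 (adjusted p = 0.113).

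The gene thn-4 (F49A5.6) had signals of 2.96 and 3.57 in low MV worms, where both spots were well above background, against 2.18 and 2.79 in high MV worms, where neither was. The groups did not overlap but lay only 0.17 apart. Set in the same way against the lowest signal well above background, thn-4 was 1.41-fold higher in low MV worms. The measured difference of 0.78 did not pass the test (SE 0.32, 95% interval -0.13 to 1.69, limma adjusted p = 0.128). Scaling each array to its 75th percentile gave 1.13 (adjusted p = 0.0461), and the deposited table and normexp gave 0.13 and 0.01.

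The gene thn-6 (Y59E9AL.1) was well above background on all 4 arrays but below the present cutoffs. Its signals were 4.24 and 4.75 in low MV worms, against 4.58 and 4.10 in high MV worms, and the groups overlapped. The difference was 0.16 (SE 0.27, 95% interval -0.59 to 0.91, adjusted p = 0.651), which leaves room for a change of about 1.5-fold down and nearly 2-fold up.

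**Figure D2:**
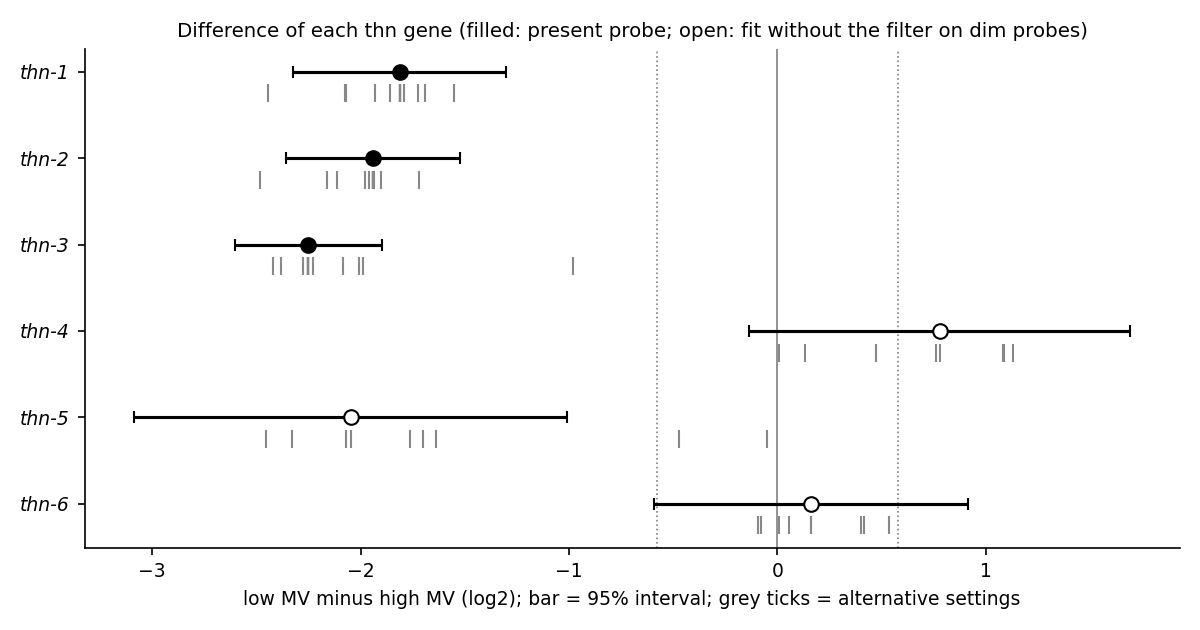
Difference of each thn gene, low MV minus high MV in log2 units, with its 95% interval from limma, filled for a present probe and open for the fit without the filter on dim probes; dotted lines mark the threshold of 0.58 and grey ticks the alternative settings. All settings of thn-1, thn-2 and thn-3 lay below -0.58, whereas those of thn-5 ran from -2.46 to -0.05.

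The 3 down-regulated genes stand side by side on chromosome IV, in the order thn-1, thn-3, thn-2, with the pseudogene thn-8 before them. None of their few tested coding neighbours was down-regulated, against 17% over all genes tested. On one side atz-1 was up-regulated, at 13.41 and 13.30 in low MV worms, against 12.26 and 12.39 in high MV worms (difference 1.03, adjusted p = 0.00154), a call lost with spike-in scaling (0.41, adjusted p = 0.411). Beyond it wdr-46, a WD-repeat protein gene, differed by -0.21 (adjusted p = 0.0958). On the other side F28D1.6 differed by 0.26 (adjusted p = 0.20) and rps-23, a ribosomal protein gene, by -0.04 (adjusted p = 0.711).

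The genes thn-6 and thn-5 are neighbours in another stretch of chromosome IV. Around them nsph-4.1 read 6.73 and 5.88 in low MV worms, against 6.81 and 8.70 in high MV worms. Y59E9AR.7 read 8.64 and 5.89 in low MV worms, against 8.91 and 11.45 in high MV worms. In both genes high MV replicate 2 alone stood far above the other arrays, and neither passed the test (adjusted p = 0.107 and 0.0809). The 6 sperm markers had a summed signal of 525 and 319 in low MV worms, against 651 and 2331 in high MV worms, with all 6 well above background on every array. The major sperm protein gene msp-3 read 8.15 and 6.68 in low MV worms, against 8.54 and 10.81 in high MV worms. Not every sperm marker had this pattern. The sperm gene spe-9 read 5.84 and 6.10 in low MV worms, against 5.35 and 5.05 in high MV worms, and spe-38 read 3.64 and 4.51 in low MV worms, against 5.27 and 5.25 in high MV worms. The arrays of thn-5 ran in another order than those of msp-3. In thn-5 low MV replicate 2 lay above low MV replicate 1 by 0.82, and high MV replicate 2 above high MV replicate 1 by 0.57. The gene spe-11 shared the order of thn-5, at 3.29 and 3.58 in low MV worms, against 3.94 and 5.81 in high MV worms. The other listed sperm markers did not. The part of sperm RNA in the difference of thn-5 was not tested.

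The gene thn-4 lies on chromosome V among C-type lectin genes. Its neighbour clec-24 fell by 0.65 (adjusted p = 0.0106), at 6.25 and 6.10 in low MV worms, against 6.97 and 6.69 in high MV worms, and did not pass with normexp (0.14) or the deposited table (0.50). The 6 genes had 18 distinct coding neighbours, 3 to each side and the members left out. Of these 16 had a probe and 8 were tested. Of the 8, 1 was up-regulated (atz-1) and 1 down-regulated (clec-24), against 21.8% and 17% over all genes. With so few genes these counts cannot be told from those shares.

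To find which genes shared the pattern of the 4 arrays, each signal was centred on the gene's own mean, and genes were ranked by Euclidean distance among those well above background on every array. The gene nearest to thn-1 was lys-5, a lysozyme gene, at a distance of 0.10 log2 units, with 11.22 and 11.11 in low MV worms, against 13.25 and 12.69 in high MV worms. The second was thn-2, and gba-4, lys-4 and dct-17 followed. The gene nearest to thn-2 was lys-4, the lysozyme gene listed beside lys-5 on its clone, at 0.12, followed by F11G11.13, poml-3, lys-5 and F41E6.5. Neither list was restricted to immune genes, and lysozymes were in both.

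Nearest to thn-3 were K02H11.8, Y70G10A.4, ttr-41 of the transthyretin-like family, pho-8 of the acid phosphatase family and ZK1320.2. Of 12877 other genes, thn-1 ranked 6 and thn-3 ranked 26 from thn-2. From thn-1, thn-2 ranked 2 and thn-3 ranked 70, and from thn-3, thn-2 ranked 36 and thn-1 ranked 88. The ranks describe 4 arrays in 2 groups, where a likeness of profile is mostly a likeness of fold change.

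**Figure D3:**
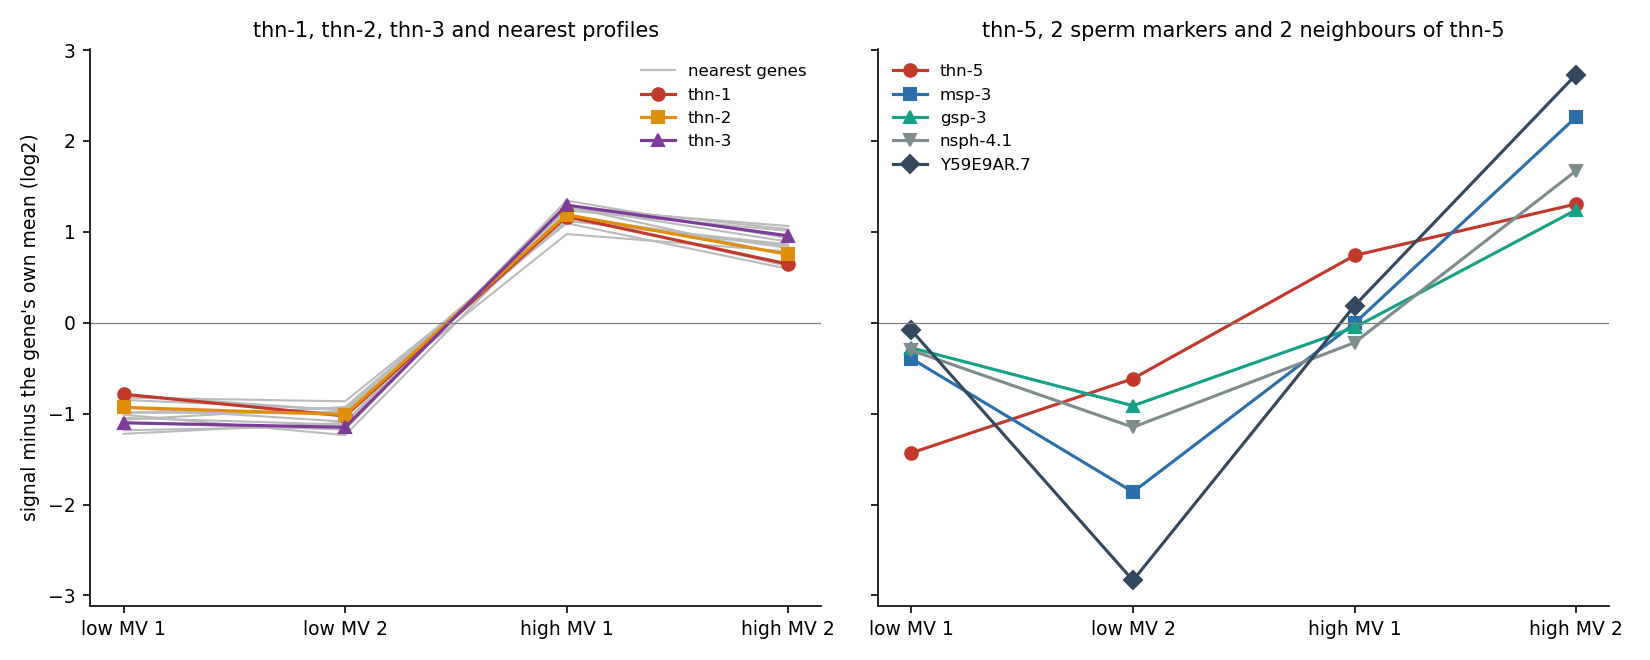
Log2 signal minus each gene's own mean on the 4 arrays, with thn-1, thn-2, thn-3 and their nearest genes (grey) on the left, and thn-5, the sperm markers msp-3 and gsp-3 and 2 neighbours of thn-5 on the right. On the left both low MV arrays lie below 0 and both high MV arrays above it, and on the right high MV replicate 2 stands apart for these 2 sperm markers and the neighbours.

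The fall of the thn genes was set beside the other antimicrobial effectors, 337 genes on the array by class name, of which 155 were tested. In low MV worms 79 of the 155 (51%) were down-regulated and 23 (14.8%) up-regulated, against 17% and 21.8% over all genes. Their median difference was -0.61, against 0.01 over all genes. Each class count below is to be read against the same shares, from which counts of few genes cannot be told. The median of thn-1, thn-2 and thn-3 was -1.94. The direction of the effector median held with each scaling and background setting, from -0.81 with spike-in scaling to -0.27 with normexp.

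Of the lysozyme genes of the lys class, 8 of 9 tested were down-regulated (88.9%) and 1 up-regulated (11.1%), with a median of -2.13. The steepest fall was that of lys-2, at 8.66 and 9.65 in low MV worms, against 13.67 and 14.04 in high MV worms (log2 fold change -4.70). The 1 that rose was lys-3, at 11.81 and 10.76 in low MV worms, against 8.24 and 8.14 in high MV worms (3.09). The groups of both genes were far apart, in opposite directions. Of 6 invertebrate-type lysozyme genes (ilys) 3 fell (50%) and 1 rose (16.7%). The steepest fall was that of ilys-5 (-2.68), and ilys-1 rose by 0.61, a call lost with spike-in scaling and normexp.

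Of 20 saposin-like spp genes, whose products can permeabilize membranes, 14 were down-regulated (70%) and 3 up-regulated (15%). Their median was -1.18, and with spike-in scaling only 1 was up-regulated. The extremes were spp-12, which fell by 2.58 (-1.40 with normexp), and spp-20, which rose by 2.25 (1.66 with normexp). Of 80 C-type lectin genes (clec) 43 fell (53.75%) and 11 rose (13.75%), with a median of -0.85. That median was -0.83 with spike-in scaling, -0.46 with 75th percentile scaling, -0.45 in the deposited table and -0.30 with normexp. With normexp 29 clec genes fell and 6 rose. Their extremes were clec-169 (-3.40, and -0.87 with normexp) and clec-17 (2.07, and 0.51 and not past the threshold with normexp). Of 4 defensin-like abf genes 2 fell (50%), abf-2 the further (-0.94), and 1 rose (25%). The 1 that rose was abf-6 (0.70), a call lost with spike-in scaling.

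The small peptide classes, several of which the epidermis is known to produce, gave mixed counts. Of 10 caenacin genes (cnc) 4 fell (40%) and 1 rose (10%), with a median of -0.23. The extremes were cnc-7 (-1.65) and cnc-1 (1.90, and 0.37 and not past the threshold with normexp). None of the 6 listed nlp peptide genes fell, and 2 rose (33.3%, against 21.8% over all genes). The further was nlp-34, at 13.55 and 14.13 in low MV worms, against 11.69 and 12.65 in high MV worms (1.67). With spike-in scaling 2 nlp genes fell and 1 rose. Of 16 fipr genes 5 fell (31.25%), most of all fipr-13 (-2.31, and -0.64 with normexp). Another 3 rose (18.75%), most of all fipr-1 (1.35, a call lost with spike-in scaling). The fipr median of 0.02 was 0.33 with 75th percentile scaling, 0.08 in the deposited table, -0.02 with normexp and -0.04 with spike-in scaling. Only 2 fipr genes fell with 75th percentile scaling, spike-in scaling or normexp, and 3 in the deposited table. None of 4 fip genes passed, and their differences ran from 0.07 to 1.46.

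**Figure D4:**
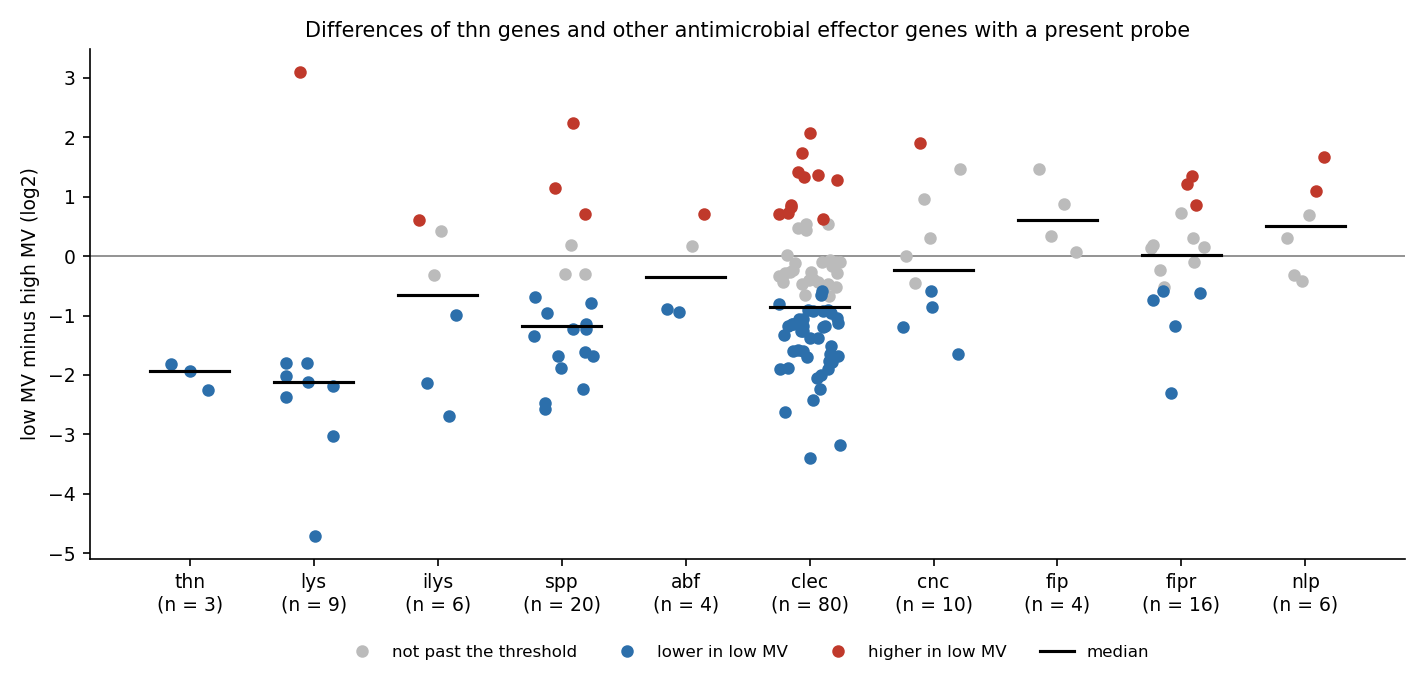
Difference of each tested gene, low MV minus high MV in log2 units, by effector class, in blue where down-regulated and in red where up-regulated in low MV worms, with black lines at class medians. The thn median of -1.94 and the lys median of -2.13 are the lowest of the 10 classes plotted, and the fip and nlp medians lie above 0.

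Among 28 regulators of immune genes, all of them tested, 8 were up-regulated in low MV worms (28.6%, against 21.8% over all genes) and 1 was down-regulated. With spike-in scaling 3 were up-regulated and 2 down-regulated. In the p38 pathway, a kinase cascade of intestinal immunity, 4 of 7 genes rose (57.1%, against 21.8% over all genes). They were tir-1, the adaptor at its head, by 1.89, the kinase genes nsy-1 by 0.95 and pmk-1 by 0.73, and vhp-1, a phosphatase gene that opposes the cascade, by 1.76. With spike-in scaling only tir-1 and vhp-1 of these passed, and pmk-1 also missed the fold threshold with 75th percentile scaling (0.56). In the DBL-1 pathway, a TGF-beta signal, the ligand gene dbl-1 rose by 0.92 and the zinc finger gene sma-9 by 0.69, and neither passed with spike-in scaling or normexp, nor sma-9 with the deposited table (0.56).

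In the insulin pathway the receptor gene daf-2 and the FOXO gene daf-16 did not pass. Of the remaining regulators zip-2, a bZIP factor gene, rose by 1.82 and hlh-30, a helix-loop-helix factor gene, by 1.11. The call of hlh-30 was lost with spike-in scaling (0.87, limma adjusted p = 0.0645). The GATA factor gene elt-2 of the intestine read 9.67 and 9.30 in low MV worms, against 9.19 and 9.10 in high MV worms (0.34, not past the threshold).

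The arrays read whole worms, so fewer cells of a type and less RNA per cell cannot be told apart. All 55 markers listed for 8 cell types were well above background on every array. The 10 intestinal markers had a summed signal of 292453 and 260502 in low MV worms, against 294817 and 261061 in high MV worms. The ranges of the groups overlapped. Most of this sum came from mtl-2, cpr-1 and asp-1, which differed by 0.42, -0.58 and 0.32, so it says little of the other markers. Of the 10, 3 (ges-1, vha-6 and cpr-1) were down-regulated (30%, against 17% over all genes) and none passed as up-regulated. Positive differences were seen in 6, 5 of them without overlap, and the median was 0.31. Body wall muscle markers summed to 11209 and 8912 in low MV worms, against 16007 and 15625 in high MV worms. Of these 8 markers, 4 were down-regulated (50%, against 17% over all genes) and none up-regulated. Without overlap, 2 of the 8 lay higher in low MV worms. On the scale of the sum, the fall of unc-27 alone was larger than that of all 8 markers together. The gene unc-27 read 10.81 and 10.45 in low MV worms, against 12.94 and 12.90 in high MV worms. Pharynx markers summed to 7774 and 7380 in low MV worms, against 4073 and 4979 in high MV worms. Most of this rise came from tnc-2, at 11.97 and 11.96 in low MV worms, against 10.51 and 10.93 in high MV worms. Only 3 of the 6 pharynx markers were tested, and 2 were up-regulated. Of 6 epidermis markers 3 were up-regulated (50%, against 21.8% over all genes) and 1, col-19, down-regulated (-3.57). Of 7 tested neuron markers 3 were up-regulated (42.9%), and of 8 oocyte and germline markers none passed. The part of cell type makeup in the fall of thn-1, thn-2 and thn-3 was not tested.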

How the data were processed

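The authors labelled whole-worm RNA, 2 samples per group, with cyanine-3 and hybridized it to Agilent C. elegans (V2) arrays. The authors deposited for each spot the background-subtracted intensity from Feature Extraction 11.5.1.1 and its median brightness, and a log2 table, which equals quantile-normalized log2 median brightness to within 5.0e-09. Of 43803 non-control spots per array, 84.58% to 87.71% were well above background, and precision is limited by the number of arrays.

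The log2 intensities of non-control spots were quantile normalized, 62 probes with an outlier flag were dropped, and spots of 1 probe were averaged. The present rule follows the methods of the study, with both arrays of 1 group asked for. The comparison was fitted in R 4.3.3 by limma 3.58.1 with lmFit and eBayes, and p was adjusted by Benjamini-Hochberg over all genes. The integrative test of the methods was not used here. Of 28477 probe names 22718 matched a gene in the RefSeq table (WBcel235), which served for names and gene order only, and 633 were kept as written. No coordinates are given because the array design used an older assembly, and probe sequences were not used here. Summaries used Python 3.11.15.

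The members, gene lists, tests and alternatives were chosen with earlier results of these data known. Named genes are the 6 thn genes, and per effector class the steepest rise and fall past the threshold. Also named are regulators past the threshold, 5 nearest profiles and 3 neighbours a side. The genes elt-2, nsph-4.1, Y59E9AR.7, msp-3, spe-9, spe-11, spe-38 and unc-27 were set beside them after their values were seen. A listed regulator and a neighbour are not reported here. Alternatives tried were spike-in scaling (8 of 10 probes used) or 75th percentile scaling, normexp (offset 50), the table as deposited, other filters on dim probes, the mean of probes, a trended and robust prior, a 2-fold threshold, the methods' t-test, the replicate number as a block, and each array left out. The fits of thn-4, thn-5 and thn-6 without the filter under other scalings and arrays were added after the data were seen. On simulated data for 12882 genes, 200 of them changed, limma recovered 77.2% of genes changed 2-fold and 95.3% of those changed 4-fold, with 10 false calls. The simulated noise followed the spread that limma fitted and held no slide effect. Far fewer genes were changed than were called in the data, so these rates do not carry over to the data.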

Additional observations from a re-analysis of the deposited data

How the results depend on the processing

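The count of 3 down-regulated thn genes was between 3 and 4 under 15 of 16 alternatives. The fourth was thn-5, without the filter on dim probes or with a filter on spots well above background. That last filter admitted thn-5 only through the high MV arrays, where it was higher, so its call there is no added support. It was 1 with the methods' t-test after Benjamini-Hochberg adjustment, and 3 with the same test unadjusted. Their median log2 fold change of -1.94 was -2.44 with spike-in scaling and otherwise ran from -2.16 to -1.72. The 102 other effector genes past the threshold became 155 with the filter on spots well above background and 30 with the methods' t-test after adjustment. With 1 array left out, the difference of thn-6 ran from -0.0914 to 0.415, below 0 without low MV replicate 2 or high MV replicate 2. The labels number the replicates alike in both groups, but same-numbered arrays did not deviate together (correlation -0.04 across genes, 2 pairs). With the replicate block 3 thn genes and 106 other effectors passed, and the thn median was -1.94. Over all genes, 2191 were down-regulated and 2808 up-regulated, against 2753 and 1007 with spike-in scaling, 1322 and 1517 with normexp, 923 and 1284 at 2-fold, and 762 and 801 with the adjusted t-test. With 1 array left out, the lone array of its group is assumed to vary like the other group. The differences of thn-4 and thn-5, both near background, were smaller in the deposited table and with normexp than in the fit reported, and the cause was not tested. Whether the probes of the neighbouring thn-1, thn-2 and thn-3 also bind each other's transcripts was not tested.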

Other observations

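The pseudogene thn-8 (F28D1.12), which stands before thn-1 and was looked at after its values were seen, had signals of 4.02 and 4.06 in low MV worms, against 4.64 and 4.38 in high MV worms. The difference was -0.47, and it did not pass the test without the filter on dim probes (limma adjusted p = 0.0549).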
